A study of Mus musculus with 16 samples.

Results

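The brain renin-angiotensin system was described from 9 genes of the 40481 listed in the count table, chosen by name. They were Agt, Ace, Agtr1a, Mas1, Agtrap, Atp6ap2, Enpep, Lnpep and Anpep. All 9 were present, and 8 of them (all except Agtr1a) were among the 14949 genes that passed the filter on low counts, which required more than 1 CPM (counts scaled to a common library total) in at least 7 mice. RNA was sequenced from brain tissue of 16 male C57BL/6J (C57BL in the labels) mice bought at 18 months of age. The peptide Adropin(34-76), the putative secreted domain of adropin, was injected intraperitoneally once a day at 90 nmol/kg/d in 8 of the mice, and the other 8 received the diluent, saline with bovine serum albumin. Both groups were tested for behaviour while injections went on and were fasted for 6 h before tissue was taken, so each gene below was measured in fasted, handled, aged animals. The 16 were selected from larger treatment groups, and the brain region that was sampled is not given in the sources used here. Each library came from 1 mouse, and a mouse is called here by the number pair of its label, such as 4_3.

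The renin-angiotensin system makes small peptide hormones in steps. Renin cuts angiotensin I from the secreted protein angiotensinogen, and angiotensin-converting enzyme shortens it to angiotensin II, which acts on AT1 and AT2 receptors. Aminopeptidases trim angiotensin II further, and other enzymes make angiotensin 1-7, a ligand of the Mas receptor. In the brain, angiotensinogen is made mainly by astrocytes, the peptides are known for the control of thirst and blood pressure, and much of the converting enzyme and aminopeptidase A lies on choroid plexus and vessels.

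The hormone itself is written in a single exon of Agt, and its codons are shown because they encode the peptide that the system makes. They lie at chr8:124564450-124564479 on the minus strand of GRCm38, in exon 2 of 5, and the line gives the 30 bases of angiotensin I with the 24 bases of angiotensin II in capitals.
Agt angiotensin I codons: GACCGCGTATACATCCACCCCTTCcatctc

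The promoter of Agt (RefSeq, GRCm38.p6, chr8:124569657-124569956, minus strand, 250 bases before to 50 after the start) is shown because Agt was the one gene of the 9 that was lower at the threshold used below. Capitals mark the motif TATAAA, which begins 30 bases before the start.
Agt promoter: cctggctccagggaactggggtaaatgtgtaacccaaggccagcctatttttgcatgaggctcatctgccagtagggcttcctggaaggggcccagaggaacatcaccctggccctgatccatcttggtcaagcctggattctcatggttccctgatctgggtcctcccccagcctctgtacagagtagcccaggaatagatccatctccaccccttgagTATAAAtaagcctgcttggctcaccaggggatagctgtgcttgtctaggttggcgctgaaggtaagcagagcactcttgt

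RefSeq promoters were matched for 8 of the 9 genes, all but Agtr1a, and gave 9 windows because Ace has a pair of start sites. TATAAA on either strand was present in 3 of the 9 windows (Agt, 1 of the windows of Ace, and Enpep), against 13.6% of 32851 promoters of the same length. The AP-1 motif TGANTCA on either strand was in 0 of the 9 windows and in 7.81% of all promoters. These are matches of letters within 300 bases and were not set against binding data.

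Products of 4 of the genes are zinc peptidases, and the coding bases around their active sites are shown to compare the enzymes. Each line gives 45 coding bases with the 15 bases of the HExxH zinc motif in capitals. The sites of Enpep (chr3:129309124-129309801), Anpep (chr7:79838990-79839195) and Lnpep (chr17:17568423-17570906) are on the minus strand and each is joined across an intron, between exons 5 and 6 of Enpep and between exons 6 and 7 of the other two. Ace, on the plus strand, has 2 sites, in exon 8 (chr11:105972895-105972939) and exon 20 (chr11:105985079-105985123).
Enpep: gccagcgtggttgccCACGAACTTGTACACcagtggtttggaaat
Anpep: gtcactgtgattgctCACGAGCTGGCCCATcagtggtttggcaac
Lnpep: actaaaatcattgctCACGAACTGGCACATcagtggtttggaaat
Ace site 1: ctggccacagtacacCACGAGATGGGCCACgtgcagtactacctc
Ace site 2: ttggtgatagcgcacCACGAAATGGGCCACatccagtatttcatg

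The sites of the 3 aminopeptidases shared 33 or 34 of 45 bases with each other. The 2 sites of Ace shared 32 of 45 bases, and no site of Ace shared more than 20 bases with an aminopeptidase. Within the 15 capital bases alone the aminopeptidases did not stand apart from Ace, since Enpep and Anpep shared 10 of them while Anpep and the first site of Ace shared 12. Every site was found by its HExxH motif, so part of the likeness within these bases was set by the search.

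The total count was 35026503 to 47245785 in saline-treated mice and 35185051 to 70314050 in adropin-treated mice. No library was a copy of another in its group, since all 56 pairs of mice of the same group gave a chi-square of 8.52 to 190 per degree of freedom. Saline-treated mouse 8_3 stood apart in choroid plexus and cerebellum genes, with a choroid plexus score of 2.86 against 1.13 in the next mouse and a cerebellum score, which rests on the 2 tested genes Car8 and Cbln1, of 3.34 against 0.097. A score is the mean over the genes of a marker list of standardized log2 CPM. Neuron markers summed to 7208 to 8731 CPM over the 16 mice, so the tissue matched its label, whereas 9 of 13 hindbrain and midbrain markers and 5 of 12 hypothalamic markers never rose above 1 CPM in any mouse, among them Hcrt, Pmch and Agrp.

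Normalized per kilobase of exon, Atp6ap2 stood first in the order of levels and Agtr1a last. The median over 16 mice was 64.2 CPM per kb for Atp6ap2, 11.4 for Agt, 5.77 for Mas1, 4.37 for Ace, 2.67 for Agtrap, 1.61 for Anpep, 1.22 for Lnpep, 0.541 for Enpep and 0.0844 for Agtr1a. Each gene was above the next in the order in at least 14 of the 16 mice, except Anpep, which was above Lnpep in 11. The precursor was therefore more abundant per length than its converting enzyme in every mouse, and the angiotensin AT1a receptor was at the edge of detection.

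**Figure D1:**
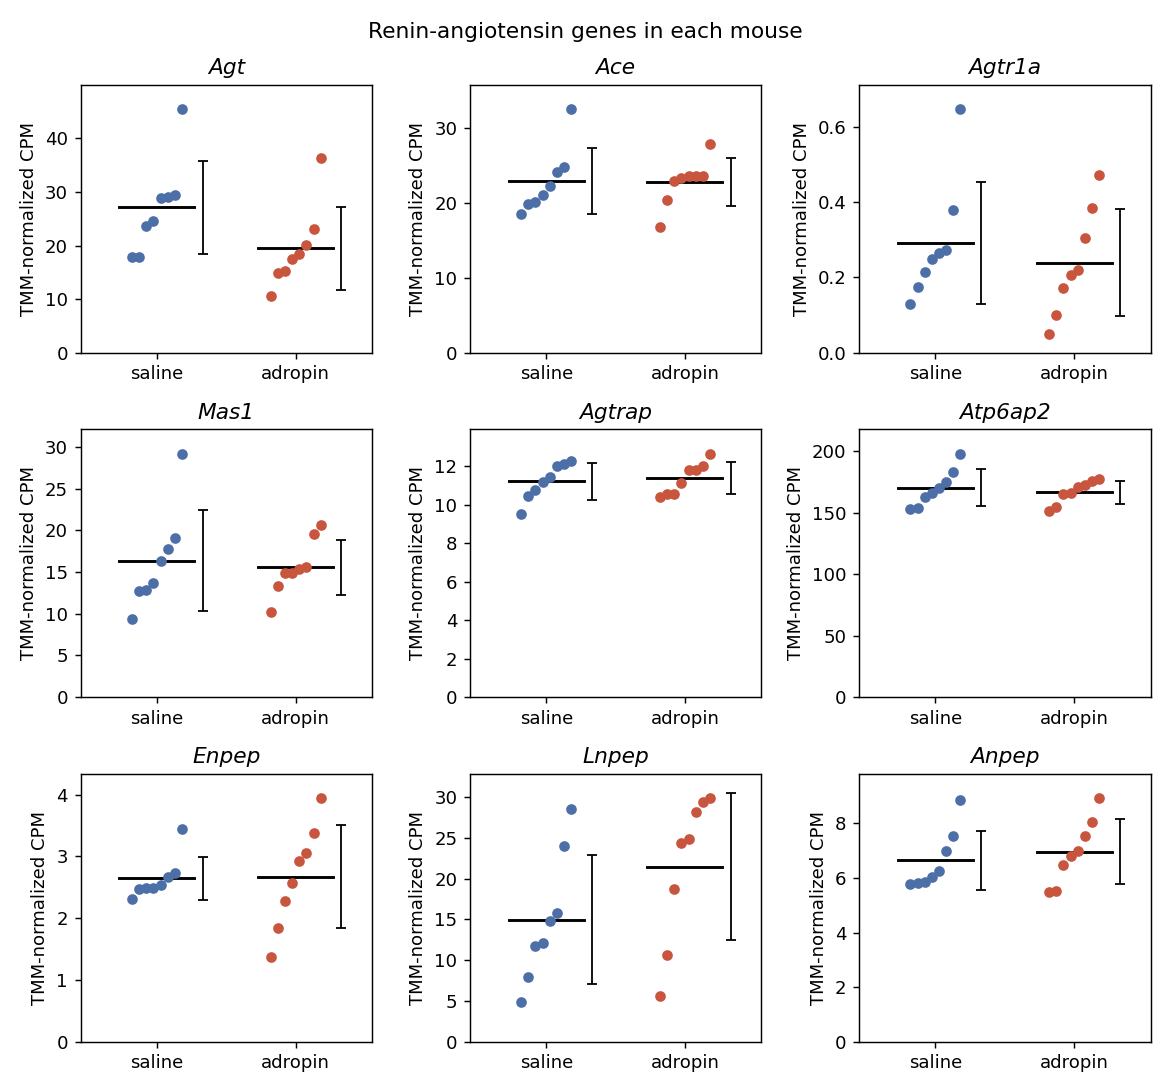
Levels of the 9 renin-angiotensin genes in TMM-normalized CPM (y axis, linear, from 0), with 1 point for each of the 8 saline-treated (blue) and 8 adropin-treated (red) mice. Horizontal lines are group means and bars are SD. Agt is the gene whose points sit lowest under adropin relative to saline, and Lnpep is spread over most of its axis in both groups.

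Agt (chr8:124556534-124569706 of GRCm38, minus strand), which encodes angiotensinogen, the only precursor of the angiotensins, was lower in adropin-treated mice at the unadjusted threshold and was the one gene of the 9 to pass it. Its level was 10.5, 18.0 and 36.3 CPM (lowest, median and highest) in adropin-treated mice and 17.8, 26.8 and 45.5 CPM in saline-treated mice. The groups overlapped, with 7 adropin-treated mice of the 8 below the saline median and adropin-treated mouse 4_3 above all saline-treated mice but 2_3. The mean was 19.5 ± 7.74 CPM (SD, n = 8) under adropin and 27.1 ± 8.76 CPM (SD, n = 8) under saline.

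The log2 fold change of Agt was -0.48 ± 0.22 (SE) and a 95% interval from -0.93 to -0.02 (edgeR quasi-likelihood test, unadjusted p = 0.0421, Benjamini-Hochberg adjusted p = 0.874). In the same test 3.99% of all genes had an unadjusted p below 0.05, and 2.13% were lower and 1.86% higher under adropin. A single call among 8 genes is too few to be set apart from this background. The two-sided exact permutation test of the mean log2 level of Agt gave p = 0.0591 over 12870 divisions of the mice. No gene of the whole table had an adjusted p below 0.05 in edgeR or in limma-voom, with 596 at an unadjusted p below 0.05 in edgeR, and 5 genes passed in DESeq2. In edgeR fits that left out 1 mouse, 3 genes passed without adropin-treated mouse 5_5 and 0 in each of the others.

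The log2 fold change of Agt kept its direction in all 16 fits that left out 1 mouse. It ran from -0.66 without adropin-treated mouse 4_3 (edgeR, unadjusted p = 0.00267) to -0.33 without saline-treated mouse 2_3 (unadjusted p = 0.120), and it passed the threshold in 6 of the 16. It was -0.52 in limma-voom (unadjusted p = 0.0241) and -0.48 in DESeq2 (unadjusted p = 0.0264). Across all 13 alternative fits it ran from -1.01 to -0.17. Those ends were a block on the first label number and the hypothalamus, thalamus and hindbrain scores together as covariates. Mouse 2_3 also had the highest thalamus score, 1.34 against 0.565 in the next mouse, and the highest fibroblast (1.12), pericyte and smooth muscle (0.797) and astrocyte (0.693) scores. The thalamus score was lower under adropin by 0.410 (exact permutation p = 0.0620, adjusted p = 0.331 over 16 lists, and an unadjusted p of 0.0375 with library-size scaling). The hippocampus score was lower by 0.558 (exact permutation p = 0.106, adjusted p = 0.400), and by 0.701 without saline-treated mouse 8_3 (unadjusted p = 0.0451). With the thalamus score as a covariate, a choice made after these values were seen, the log2 fold change of Agt was -0.23 (edgeR, unadjusted p = 0.321). The other scores in which mouse 2_3 was highest were not run as covariates, apart from the astrocyte score below. Whether the makeup of each sample takes part in the difference in Agt was not tested beyond this, and lower expression per cell cannot be told apart from fewer expressing cells in bulk tissue.

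Astrocytes are the main known source of Agt. All 12 listed markers, Gfap, Aqp4 and Aldh1l1 among them, were tested. Their summed level was 3621 to 5339 CPM in adropin-treated and 3334 to 5076 CPM in saline-treated mice, and the astrocyte score differed by 0.073 (exact permutation p = 0.783). With that score as a covariate the log2 fold change of Agt was -0.47 (edgeR, unadjusted p = 0.0520).

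**Figure D2:**
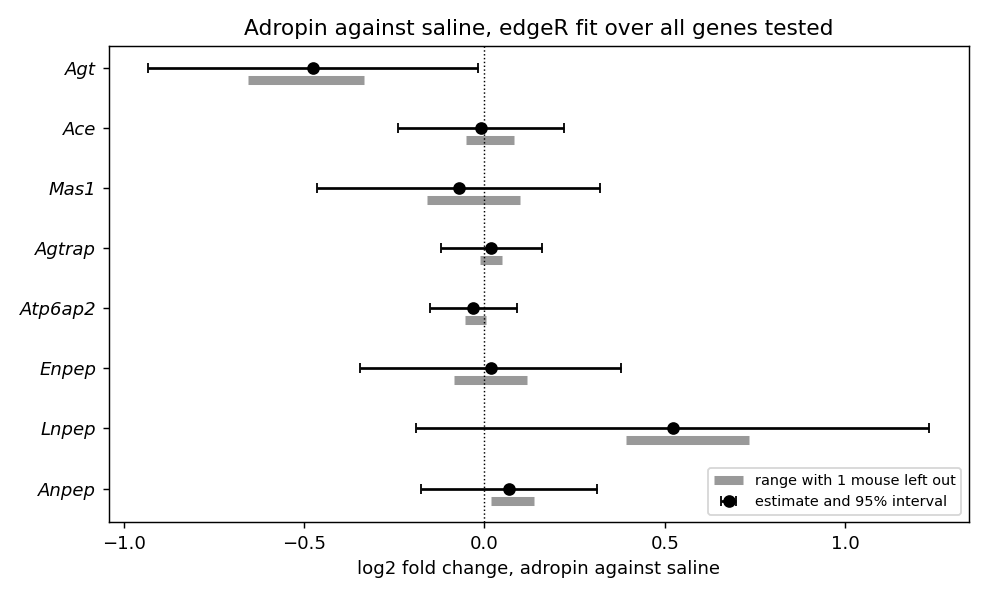
Log2 fold change of adropin against saline (x axis) for the 8 renin-angiotensin genes tested, as edgeR estimates with 95% intervals (black), and the range of the estimate when each of the 16 mice was left out in turn (grey). The interval of Agt, from -0.93 to -0.02, is the one that does not include 0, and that of Lnpep is the widest.

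Ace (chr11:105967945-105989964, plus strand) encodes angiotensin-converting enzyme. Its level was 16.8, 23.4 and 27.9 CPM (lowest, median and highest) under adropin and 18.5, 21.7 and 32.5 CPM under saline. The groups overlapped, and the highest value belonged to saline-treated mouse 8_3, the mouse with the highest choroid plexus score. The log2 fold change was -0.01 ± 0.11 (SE) (edgeR, unadjusted p = 0.936) and 0.08 without mouse 8_3 (unadjusted p = 0.389). Ace shares 295 exonic bases, 5.58% of its exons, with the antisense gene Gm11651, and whether counting used strand is not given in the sources used here.

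Of the receptors, Agtr1a (chr13:30336441-30382867, plus strand) encodes the AT1a receptor, through which angiotensin II raises blood pressure and drinking. It had 2 to 21 counts a mouse under adropin, 89 in all, and 6 to 30 under saline, 99 in all. That is 0.050, 0.214 and 0.473 CPM (lowest, median and highest) under adropin and 0.130, 0.257 and 0.647 CPM under saline, with overlapping groups. In a fit with no filter on low counts, in which 6.30% of 30210 genes had an unadjusted p below 0.05, its log2 fold change was -0.28 ± 0.40 (SE) (edgeR, unadjusted p = 0.497), and no difference was detected.

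Mas1 (chr17:12841079-12868143, minus strand), which encodes the receptor for angiotensin 1-7, was expressed at 10.2, 15.1 and 20.7 CPM under adropin and 9.32, 15.0 and 29.2 CPM under saline. Saline-treated mouse 6_1 was highest and 8_3 lowest, both in the same group. The log2 fold change was -0.07 ± 0.19 (SE) (edgeR, unadjusted p = 0.705). Mas1 lies inside the transcribed region of the antisense gene Airn and shares no exonic base with it.

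Agtrap (chr4:148077061-148088031, minus strand) encodes a protein that binds the AT1 receptor and promotes its internalization, and Atp6ap2 (chrX:12587801-12617049, plus strand) encodes the (pro)renin receptor, an accessory subunit of the vacuolar proton pump. Agtrap was at 10.4, 11.5 and 12.6 CPM under adropin and 9.51, 11.3 and 12.3 CPM under saline, overlapping throughout, and its log2 fold change was 0.02 ± 0.07 (SE) (edgeR, unadjusted p = 0.782). Atp6ap2 was at 152, 169 and 177 CPM under adropin and 153, 168 and 198 CPM under saline, overlapping throughout, and its log2 fold change was -0.03 ± 0.06 (SE) (edgeR, unadjusted p = 0.601). These were the steadiest of the 8 genes between mice. The SD of their log2 levels within groups was at the 16.9 percentile of all genes tested for Agtrap and at the 13.1 percentile for Atp6ap2. The 95% intervals of their log2 fold changes ran from -0.12 to 0.16 and from -0.15 to 0.09.

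The aminopeptidases differed in their spread between mice. The within-group SD of log2 levels was at the 61.7 percentile of all genes tested for Anpep and at the 86.6 percentile for Enpep, with Lnpep above both. Enpep (chr3:129269175-129332720, minus strand) encodes aminopeptidase A, which converts angiotensin II to angiotensin III. Its level was 1.38, 2.74 and 3.94 CPM under adropin and 2.32, 2.51 and 3.45 CPM under saline. The adropin-treated mice 4_3 (lowest) and 1_3 (highest) spanned the whole range, so that the saline group lay within the adropin group, and the log2 fold change was 0.02 ± 0.17 (SE) (edgeR, unadjusted p = 0.923). Its sign turned without any 1 of 4 of the mice and with library-size scaling.

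Anpep (chr7:79821803-79861059, minus strand) encodes aminopeptidase N, which acts on angiotensin III. It was at 5.47, 6.90 and 8.92 CPM under adropin and 5.76, 6.15 and 8.86 CPM under saline. The groups overlapped fully, and the log2 fold change was 0.07 ± 0.12 (SE) (edgeR, unadjusted p = 0.561).

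Lnpep (chr17:17521410-17625050, minus strand) encodes insulin-regulated aminopeptidase, the binding site of angiotensin IV, and varied most of the 8 genes. Its level was 5.66, 24.6 and 29.8 CPM under adropin and 4.83, 13.4 and 28.5 CPM under saline. Adropin-treated mouse 4_3 and saline-treated mouse 5_4 were lowest, 2_4, 1_3 and 5_3 were highest, and only 2 adropin-treated mice lay below the saline median. The log2 fold change of Lnpep was 0.52 ± 0.34 (SE) and an interval from -0.19 to 1.23 (edgeR, unadjusted p = 0.141). It was 0.67 without adropin-treated mouse 4_3 (edgeR, unadjusted p = 0.0381) and 0.73 without saline-treated mouse 5_3 (unadjusted p = 0.0416), and in the other 14 fits that left out 1 mouse it did not pass, the lowest value being 0.39 without saline-treated mouse 5_4 (unadjusted p = 0.232). The within-group SD of its log2 level, 0.84, was at the 99.5 percentile of all genes tested, where the median gene had 0.20. Agt, with 0.48, and Mas1, with 0.41, came next among the 8.

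Over the 8 genes tested, 4 were below and 4 above 0, and the median log2 fold change was 0.0040, beside -0.0019 over all genes tested.

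The rest of the system was read from a list of 26 further genes, of which 25 were in the table and 14 were tested. None had an unadjusted p below 0.05 (edgeR), 5 were below and 9 above 0, and their median log2 fold change was 0.02. Ren1, the gene for renin itself, had 0 to 11 counts a mouse. The highest values of the receptor genes Agtr1b and Agtr2 were 0.276 and 0.717 CPM.

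Peptidases that make angiotensin 1-7 were better expressed than these. Mme, the gene for neprilysin, was at a log2 fold change of 0.39 ± 0.23 (SE) (edgeR, unadjusted p = 0.117), the smallest p of the list. Prep was at 0.11, Nln at 0.10, Prcp at 0.03 and Thop1 at -0.02, none of them past the threshold. The level of Thop1, 62.2 ± 3.76 CPM under adropin and 62.9 ± 3.90 CPM under saline (mean ± SD, n = 8), was the steadiest of these.

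Of 44 genes that carry or limit the signal of the AT1 receptor, 41 were tested, 2 were lower and 0 higher at the unadjusted threshold, and the median log2 fold change was 0.04. The background rates are the 2.13% and 1.86% given above. Prkcd, a protein kinase C, was at 7.51, 7.62 and 9.41 CPM under adropin and 8.20, 8.94 and 14.1 CPM under saline, and its log2 fold change was -0.28 ± 0.10 (SE) (edgeR, unadjusted p = 0.0148, adjusted p = 0.874). Prkcd is also a marker of thalamic neurons and stands on the thalamus list. Rgs5, a brake on Gq signals that is abundant in pericytes, was at 65.7, 74.5 and 89.3 CPM under adropin and 68.3, 84.5 and 95.3 CPM under saline, and its log2 fold change was -0.16 ± 0.07 (SE) (edgeR, unadjusted p = 0.0345, adjusted p = 0.874).

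Likeness between mice was measured as Pearson's r of log2 levels over the 16 mice. The mean of each group was subtracted first, so that the difference in mean between treatments does not enter it, while r may still differ between groups. Likeness is a description without a test, since the genes of a mouse share its library and its dissection. The 10 genes most like Agt, from r = 0.86 down to 0.79, were Foxo1, Angptl4, Supt3, 6330403K07Rik, Ndufaf6, Maged2, Ppcs, Zfp599, Ppa1 and Ninj1. Foxo1 is the insulin-responsive forkhead factor and Angptl4 a fasting-induced inhibitor of lipoprotein lipase. Among the most opposite, from r = -0.82 to -0.81, were Stx1a, the presynaptic syntaxin, Actl10, Sec16b and Ivns1abp. Of the genes named here Stx1a alone had an unadjusted p below 0.05 between treatments, with a log2 fold change of 0.17 (edgeR, unadjusted p = 0.00713).

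The genes most like Agt depended on single mice. Without adropin-treated mouse 4_3 only 1 of the 10 stayed among the 10 most alike, and without saline-treated mouse 2_3 only 3 did. Both are the mice with the highest Agt in their group. Spearman's rank correlation kept 1 of the 10.

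**Figure D3:**
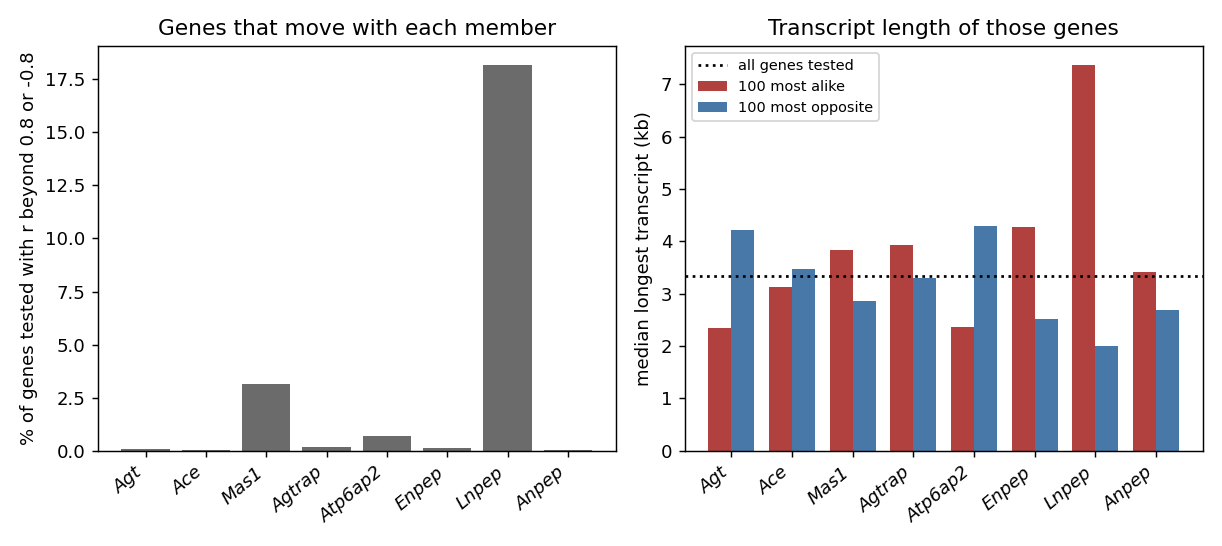
Left, percentage of the other 14948 genes tested whose r with each renin-angiotensin gene was above 0.8 or below -0.8 over 16 mice, group means subtracted. Right, median length in kb of the longest transcript of the 100 genes most alike (red) and most opposite (blue), with the median of all genes tested as a dotted line. Lnpep has the highest bar on the left, at 18.2%, and the widest gap on the right, with 7.37 kb against 2.00 kb, and for Agt, Ace and Atp6ap2 the order is the other way.

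Lnpep moved with a large part of the transcriptome. Of the other 14948 genes, 1769 had r above 0.8 with Lnpep and 947 had r below -0.8, together 18.2%, whereas the same limits took in 3.12% for Mas1 and 0.669% for Atp6ap2. The most alike were Fam168a, Slc7a1, Gsk3b, Rims2 and Fzd3, each at r = 0.98, and the most opposite were Rbm25, Utp11, Rbm39, Fam173a and Luc7l3, of which Rbm25, Rbm39 and Luc7l3 encode RNA-binding splicing factors. The longest transcript had a median length of 5669 bases among the genes above 0.8 and of 1521 bases among those below -0.8, against 3330 bases over all genes tested. For Agt, Ace and Atp6ap2 the order was the other way, with medians of 2350.5, 3122 and 2365 bases among the 100 genes most alike and of 4208.5, 3479 and 4288 bases among the 100 most opposite. Lnpep itself has a transcript of 12052 bases, of which 3075 encode the protein and 8342 follow the stop of translation.

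The level of Lnpep also rose and fell with the share of each library taken by Gm42418, a ribosomal RNA-like gene, which ran from 0.840% in mouse 4_3 to 4.98% in mouse 7_4. The correlation was r = 0.748 (permutation p = 0.00141, adjusted p = 0.0226 over 16 relations of the 8 genes with this share and with total counts) and rho = 0.729 (permutation p = 0.00230, adjusted p = 0.0368). It was r = 0.672 without mice 7_4 and 4_3, which are farthest from the median share on the log2 scale. The share was 2.61% ± 1.39 under adropin and 1.79% ± 0.759 under saline (mean ± SD, n = 8), higher under adropin by 0.45 on the log2 scale, a difference that did not pass the two-sided exact permutation test (p = 0.241). None of the other 15 relations passed adjustment. For Agt with this share r was -0.540 (permutation p = 0.0421, adjusted p = 0.225), rho was -0.362 (permutation p = 0.186), and r was -0.141 without mice 7_4 and 4_3, so that relation rests on those mice. For Atp6ap2 with this share r was -0.503 (permutation p = 0.0376, adjusted p = 0.225), rho was -0.359 (permutation p = 0.168), and r was -0.474 without mice 7_4 and 4_3. The part of library composition in the levels of Lnpep, Agt and Atp6ap2 was not tested. This measure was chosen after the spread of Lnpep was seen.

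The other genes each had their own company. Ace was most like Cpq, Slc13a4, Msx1, Cdh1 and Oat (r from 0.85 to 0.81). Enpep was most like Ptprb, Adgrl4, Trim30a, Hpse and Pecam1 (r from 0.87 to 0.84), of which Ptprb, Adgrl4 and Pecam1 are endothelial genes. Mas1 was most like Slc44a5, Plppr2, Stum, Gal3st3 and Fndc1 (r from 0.96 to 0.94). Atp6ap2 was most like Eno1, Ccdc25, Vamp7, Rab11a and Serinc1 (r from 0.91 to 0.90), of which Vamp7 and Rab11a serve vesicle traffic. Anpep was most like Myoc (r = 0.86), and Agtrap most like Smim20 (r = 0.85). Applying the rule for Agt to these genes was a choice made after the data were seen.

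The 8 genes did not form one group between mice. Of their 28 pairs none had an adjusted permutation p below 0.05. The strongest were Agtrap with Mas1 (r = -0.669, permutation p = 0.00775, adjusted p = 0.117; rho = -0.562, permutation p = 0.0298) and Enpep with Lnpep (r = 0.636, permutation p = 0.00834, adjusted p = 0.117; rho = 0.432, permutation p = 0.102), and these fell to -0.397 and 0.375 without the 2 mice farthest from the median. For Agt with Ace r was 0.562 (permutation p = 0.0288, adjusted p = 0.217), with rho = 0.676 (permutation p = 0.00659, adjusted p = 0.184), and r was 0.416 without 2 mice. Some of these pooled values combine groups that differed. For Agt with Agtrap r was -0.826 under adropin and 0.396 under saline, and for Agt with Mas1 it was 0.877 and 0.019. For Agt with Ace the groups were alike, at 0.579 and 0.566. The difference between groups was not tested for any pair.

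**Figure D4:**
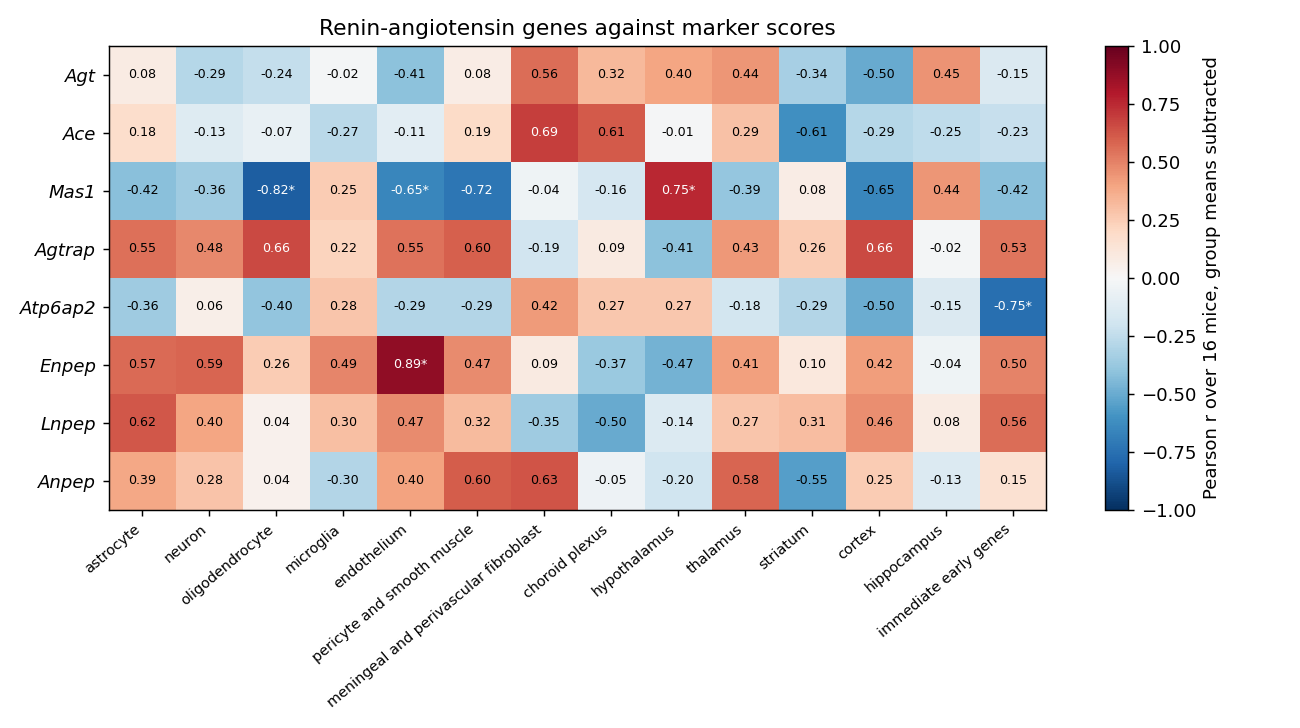
Pearson's r over 16 mice, group means subtracted, between each of the 8 renin-angiotensin genes tested (rows) and each of 14 marker scores (columns), from blue (-1) to red (1). An asterisk marks an adjusted permutation p below 0.05 over the 112 relations, which 5 of them reached, among them Enpep with endothelium at 0.89 and Mas1 with the oligodendrocyte score at -0.82.

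Against marker scores of cell types and regions, 5 of 112 relations had an adjusted p below 0.05. Enpep followed the endothelium score (9 genes, Pecam1, Cldn5 and Flt1 among them), with r = 0.889 (permutation p = 4e-05, adjusted p = 0.00448) and rho = 0.809 (permutation p = 7.4e-04, adjusted p = 0.0207). Within the groups r was 0.946 under adropin and 0.623 under saline, and over all mice it was 0.841 without the 2 mice farthest from the median, 1_3 and 3_3, both adropin-treated. Saline-treated mouse 2_3 had the highest Enpep (3.45 CPM) and the highest endothelium score (0.670) of its group. The relation under saline was not tested without that mouse. Adropin-treated mice 4_3 and 3_3 had the lowest Enpep and the lowest endothelium scores, and 1_3 the highest of both.

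Mas1 ran opposite to the oligodendrocyte score (8 genes, Mbp, Mog and Mag among them), with r = -0.822 (permutation p = 4.6e-04, adjusted p = 0.0258), rho = -0.771 (permutation p = 0.00134, adjusted p = 0.0300) and r = -0.656 without 2 mice. It was also opposite to the endothelium score (r = -0.654, permutation p = 0.00129, adjusted p = 0.0361; rho = -0.794, permutation p = 4.1e-04, adjusted p = 0.0207; r = -0.784 without 2 mice). It rose with the hypothalamus score (r = 0.752, permutation p = 0.00178, adjusted p = 0.0399; rho = 0.868, permutation p = 9e-05, adjusted p = 0.0101; r = 0.754 without 2 mice), which rests on the 3 tested genes Trh, Pomc and Gpr165 of 12 listed. Hcrt, Pmch, Agrp, Nkx2-1 and Hmx2 of that list never rose above 1 CPM. The score therefore cannot be read as the hypothalamic content of a sample. Saline-treated mouse 6_1 had both the highest Mas1 and the lowest oligodendrocyte score, and the oligodendrocyte markers summed to 2821 to 8240 CPM over the 16 mice.

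Atp6ap2 was lower in mice with a higher score of immediate early genes (14 genes, Fos, Egr1 and Arc among them), with r = -0.754 (permutation p = 0.00109, adjusted p = 0.0361) and r = -0.726 without 2 mice, and with rho = -0.665 (permutation p = 0.00589, adjusted p = 0.0944). The immediate early gene score was itself lower under adropin by 1.13 (exact permutation p = 0.00622, adjusted p = 0.0995 over 16 lists), while Atp6ap2 differed by -0.03 on the log2 scale. Fos, Fosb, Junb, Dusp1 and Ccn1 of this list were already named by the paper among the genes that responded in this experiment. The p of this score is therefore not independent of these data.

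**Figure D5:**
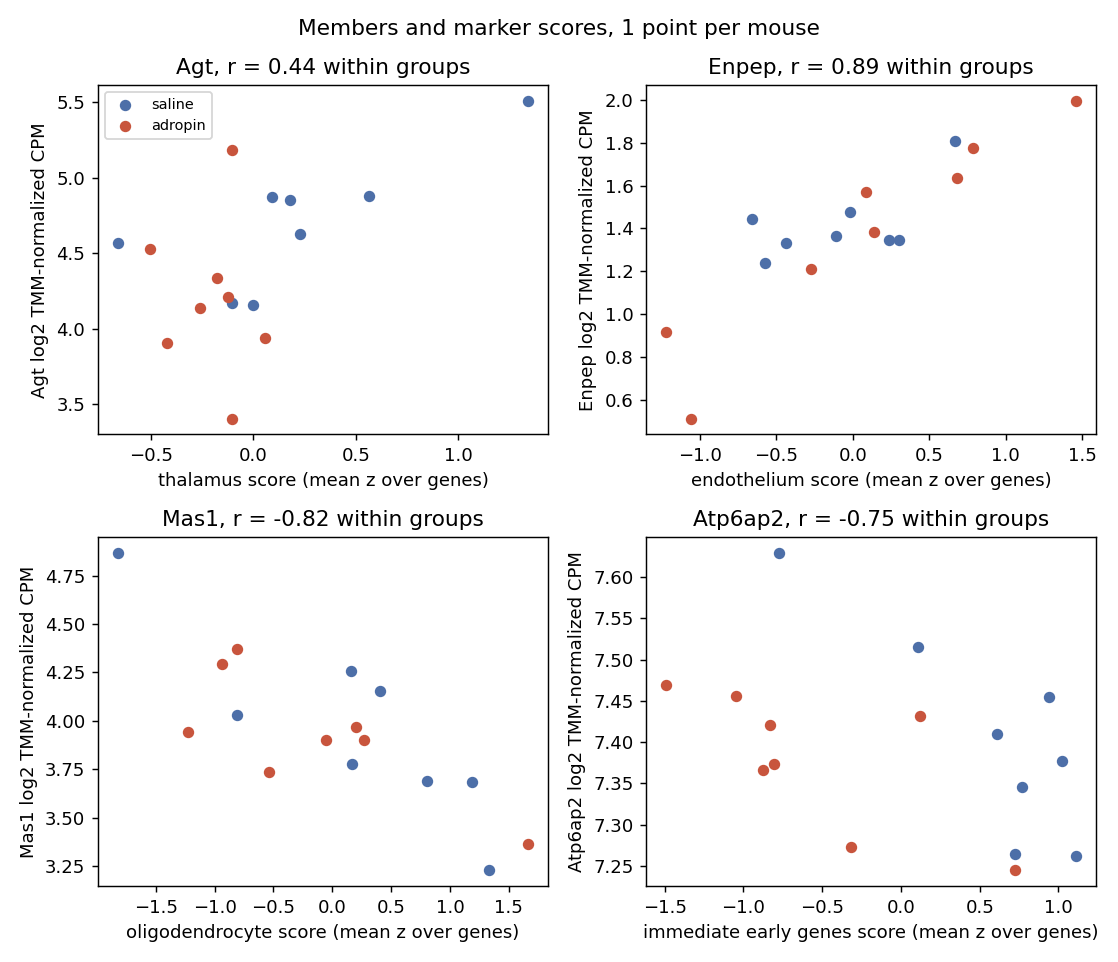
Log2 TMM-normalized CPM of 4 renin-angiotensin genes (y axes, not from 0) against a marker score in standard units (x axes), with 1 point per mouse, saline in blue and adropin in red. Titles give r after the group means were subtracted, 0.44 for Agt with thalamus, 0.89 for Enpep with endothelium, -0.82 for Mas1 with oligodendrocyte and -0.75 for Atp6ap2 with immediate early genes. The point at the far right of the Agt panel is saline-treated mouse 2_3.

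Agt had no relation with a score that passed adjustment. With the fibroblast score r was 0.556 (permutation p = 0.0292, adjusted p = 0.141; rho = 0.529, permutation p = 0.0446) and 0.620 without 2 mice, and with the cortex score r was -0.503 (permutation p = 0.0521; rho = -0.538, permutation p = 0.0403). The unadjusted p for cortex was 0.0240 when the score was a median over genes (r = -0.583, permutation) and 0.0481 with library-size scaling (r = -0.501, permutation). With the thalamus score r was 0.444 (permutation p = 0.0681; rho = 0.374, permutation p = 0.163), and 0.124 without mice 2_3 and 8_3, so that relation rests on those mice. With library-size scaling it was 0.489 (permutation p = 0.0371). With the hippocampus score r was 0.452 (permutation p = 0.0792; rho = 0.376, permutation p = 0.164) and 0.339 without 2 mice. With the astrocyte score r was 0.084 (permutation p = 0.760; rho = 0.191, permutation p = 0.490). Within the groups it was -0.620 under adropin and 0.753 under saline, and the difference between these was not tested.

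Ace followed the fibroblast score by rank (rho = 0.80, permutation p = 5.8e-04, adjusted p = 0.0207), and its r of 0.691 did not pass adjustment (permutation p = 0.00571, adjusted p = 0.0914; 0.720 without 2 mice). With the choroid plexus score r was 0.615 (permutation p = 0.0326, adjusted p = 0.141; rho = 0.262, permutation p = 0.348), and 0.268 without mice 8_3 and 5_4, so it rests on those mice. The choroid plexus score was lower under adropin by 0.806 (exact permutation p = 0.0413, adjusted p = 0.331) and by 0.456 when mouse 8_3 was left out (exact permutation p = 0.0774). Anpep with the fibroblast score (r = 0.629, permutation p = 0.0120, adjusted p = 0.0981; rho = 0.615, permutation p = 0.0151) did not pass adjustment.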

How the data were processed

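Brain RNA of 8 adropin-treated and 8 saline-treated mice was analysed. Libraries were poly-A selected and read as pairs on a NovaSeq. The authors used STAR with the mouse assembly of Ensembl 76 and featureCounts, which took each read that had a unique place in a single gene. They deposited the unnormalized counts, and their CPM table was not used. Of 40757 rows, 276 repeats of a gene were dropped. In edgeR 4.0.16 (R 4.3.3), TMM factors were calculated, 355 ribosomal RNA genes were left out, a gene was tested if over 1 CPM in 7 or more mice, and groups were compared by the quasi-likelihood test with Benjamini-Hochberg adjustment over 14949 genes and no covariate. Levels are TMM-normalized CPM, and log2 levels used a prior count of 2. Correlations used 100000 permutations within groups, and single values used exact permutation. Coordinates and lengths are from GENCODE on GRCm38. The tests were tried on simulated counts. Alternatives were limma-voom (limma 3.58.1), DESeq2 1.42.0, a robust fit, other scalings, filters, covariates and label blocks, and leaving out each mouse. All 9 members were named, with 9 further genes of the system, genes of both lists with an unadjusted p below 0.05, and the 10 genes most and 5 least like Agt. Results for 2 genes under this rule are not reported here. The members and lists were chosen with earlier results of these data known.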

Additional observations from a re-analysis of the deposited data

Results flagged for a closer look

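Within a group of 8 mice, 7 of 50 sets of values had 1 mouse whose gap to its nearest neighbour exceeded Dixon's critical share of the range, where chance gives about 1 in 20, or 2.5. Agt was 45.5 CPM in saline-treated mouse 2_3 against 29.4 in the next mouse. Enpep was 3.45 CPM in the same mouse against 2.73. Ace was 32.5 CPM in saline-treated mouse 8_3 against 24.8. The cortex score was -1.74 in saline-treated mouse 6_1, the mouse with the highest Mas1, against -0.301 in the next mouse. The cerebellum score, of 2 genes, was 3.34 in saline-treated mouse 8_3 against 0.015 in the next saline-treated mouse, and -0.868 in adropin-treated mouse 1_3 against -0.248. The hindbrain and midbrain score, which is Tph2 alone, was -2.27 in adropin-treated mouse 3_3 against -0.134. None of these mice was left out of the results given above unless stated.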

How the results depend on the processing

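The log2 fold change of Agt was negative under all 13 alternatives and with each mouse left out (-0.66 without adropin replicate 6 to -0.33 without saline replicate 1). It no longer passed p below 0.05 with the astrocyte score (-0.47), the hypothalamus, thalamus and hindbrain scores together (-0.17, where the hypothalamus score is 3 genes and the hindbrain score is Tph2 alone) or the thalamus score alone (-0.23) as covariates, which left 0 of the 8 genes past the threshold, and the cause was not tested. With 1 mouse left out, 0 to 2 passed. The numbers in the mouse labels did not pair the samples (2 of 5 pairs with a shared first number and 7 of 17 with a shared second number had a correlation above 0.1). With a replicate block on the first number Agt was -1.01 (edgeR, unadjusted p = 0.00345) and on the second -0.55 (unadjusted p = 0.0133). Only the first numbers 2, 5 and 7 hold mice of both groups, so the first block compares treatments within these numbers alone. Mouse 2_3, with the highest Agt, is the only saline-treated mouse with first number 2. Over all genes, 2 had an adjusted p below 0.05 (edgeR) with the second block and 0 with the first.

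Signs of differences near 0 turned: Ace 0.0411 (3 scores) and 0.0671 (thalamus score), Agtrap -0.0040 (library size) and -0.0014 (second block), Enpep -0.0194 (limma-voom), -0.0133 (library size), -0.0265 (second block) and -0.0276 (astrocyte score), and Anpep -0.13 (first block). With 1 mouse left out, Ace ran from -0.0507 to 0.0805, Agtrap from -0.0132 to 0.0482, Enpep from -0.0838 to 0.118, Atp6ap2 from -0.0540 to 0.0033 and Mas1 from -0.16 to 0.10. The astrocyte score difference was -0.029 and the r of Agt with the microglia score 0.068 with library size only, the pericyte score difference was 0.064 as a median and 0.0086 without saline replicate 8, and the striatum score difference was -0.0032 without it. Genes lower at p below 0.05 numbered 1061 with no filter, 195 with the first block, 494 with the thalamus score and 192 to 524 with 1 mouse left out. Genes higher numbered 158 with library size only, 841 with no filter, 132 and 146 with the blocks, 545 with the thalamus score and 162 to 921 with 1 mouse left out. Of the 10 genes most like Agt, 1 was shared with Spearman's correlation, 4 when group means were not subtracted and 1 to 9 with 1 mouse left out. Counts of Agtr1a and Ren1 were too few for the filter, and the cause of their low levels was not tested.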
